A study of Mus musculus with 66 samples.

Results

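The clustered protocadherin genes are 57 mouse gene symbols in 3 neighbouring clusters, taken as every symbol that begins with Pcdha, Pcdhac, Pcdhb, Pcdhga, Pcdhgb or Pcdhgc and ends in a number. They were 57 of the 30084 symbols in the deposited table, with 14 in the alpha cluster, 22 in the beta cluster and 21 in the gamma cluster. Of these, 54 passed the filter on low counts, among 16145 tested genes: 12 alpha, 22 beta and 20 gamma members. Pcdha4 (largest count in any library 8), Pcdha11 (largest count 6) and Pcdhga10 (listed at 0 in all 66 libraries) were not tested. Of the exon length of Pcdha4 8.56% (494 bp) is shared with no other gene on its strand, so its low count cannot be told apart from reads not assigned to it. On the mm10 build (GRCm38), with GENCODE M21 gene models, all 3 clusters lie on the plus strand of chromosome 18. The alpha members span 36930184 to 37187661, the beta members 37264938 to 37524479 and the gamma members 37661793 to 37841873.

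Clustered protocadherins are cell surface adhesion proteins of neurons. Single neurons choose a few of the variable alpha, beta and gamma promoters, which gives each cell its own combination of surface proteins, and these bind like with like and mediate self-avoidance of neurites. In the alpha and gamma clusters each variable first exon is spliced to 3′ constant exons shared by the whole cluster, while beta members are single-exon genes with no constant part. The C-type members Pcdhac1, Pcdhac2, Pcdhgc3, Pcdhgc4 and Pcdhgc5 lie at the 3′ end of the alpha and gamma variable arrays and are regulated apart from the other promoters. CTCF and cohesin loop active promoters to distant enhancers, and DNA methylation and histone methylation keep unused promoters silent.

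The study measured polyadenylated RNA in neurons cultured from wildtype embryos (e16.5), with male and female embryos kept apart. The neurons received lentivirus carrying a short hairpin RNA (shRNA) against 1 of 9 targets (Med13l, Mbd5, Chd8, Setd5, Ash1l, Tbr1, Kmt2c, Dnmt3a and Kdm6b), a nontargeting shRNA, or no virus. Virus was removed on culture day 6, lysis followed on culture day 10, and the stated doses aimed at about 50% of each target's level. Each of the 22 groups, 11 conditions in 2 sexes, has 3 libraries. All infected groups share the lentiviral vector and its exposure, and the labels give neither a hairpin sequence nor a second hairpin per target, so each knockdown rests on 1 labelled reagent. The labels speak of wells infected in triplicate and do not say that replicates are separate cultures or litters, so p-values measure only the spread between these samples, which may be technical. In the table the control libraries are named for luciferase, and they were taken to be the nontargeting group.

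Total counts per library ranged from 13634872 to 66074822. Each of the 9 targets was lower in its own knockdown, at log2 fold changes from -2.13 for Dnmt3a to -1.14 for Kdm6b. In 52 of the 54 knockdown libraries the target stood at 13.4% to 78.8% of the mean of the nontargeting libraries of that sex. The library labelled Setd5 male replicate 1 had Setd5 at 101% and Kdm6b at 38.5%, and the library labelled Kdm6b male replicate 1 had Kdm6b at 66.7% and Setd5 at 32.3%. Both go against their labels, both were kept under them, and the main Setd5 and Kdm6b results are also given without both. The 6 neuron markers summed to 5200 to 5700 counts-per-million (CPM) in the nontargeting libraries, 6 astrocyte markers to 92.5 to 166 CPM, and 6 microglia markers to 0.945 to 2.56 CPM. In bulk RNA, fewer cells of a type and less RNA per cell cannot be told apart.

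In the control neurons the members differed widely in level, and 1 C-type member had the highest level in each of the alpha and gamma clusters. Levels are compared between genes as CPM per kb of exon that no other gene on the same strand shares, over the 6 nontargeting libraries. Pcdhac2 had the highest level, 24.6 CPM per kb (SD 3.6, n = 6), against 7.22 for the next alpha member, Pcdha3, and 0.318 for the lowest tested, Pcdha8. Pcdhgc4 led the gamma cluster at 19.9 CPM per kb (SD 2.04, n = 6), with Pcdhga3 next at 10.4 and Pcdhgb4 lowest at 1.62. The beta cluster, with no C-type member, ran from 7.59 for Pcdhb9 to 0.146 for Pcdhb1, with Pcdhb20 second at 5.12. Cluster medians were 4.78 CPM per kb for alpha, 2.34 for beta and 3.87 for gamma.

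**Figure D1:**
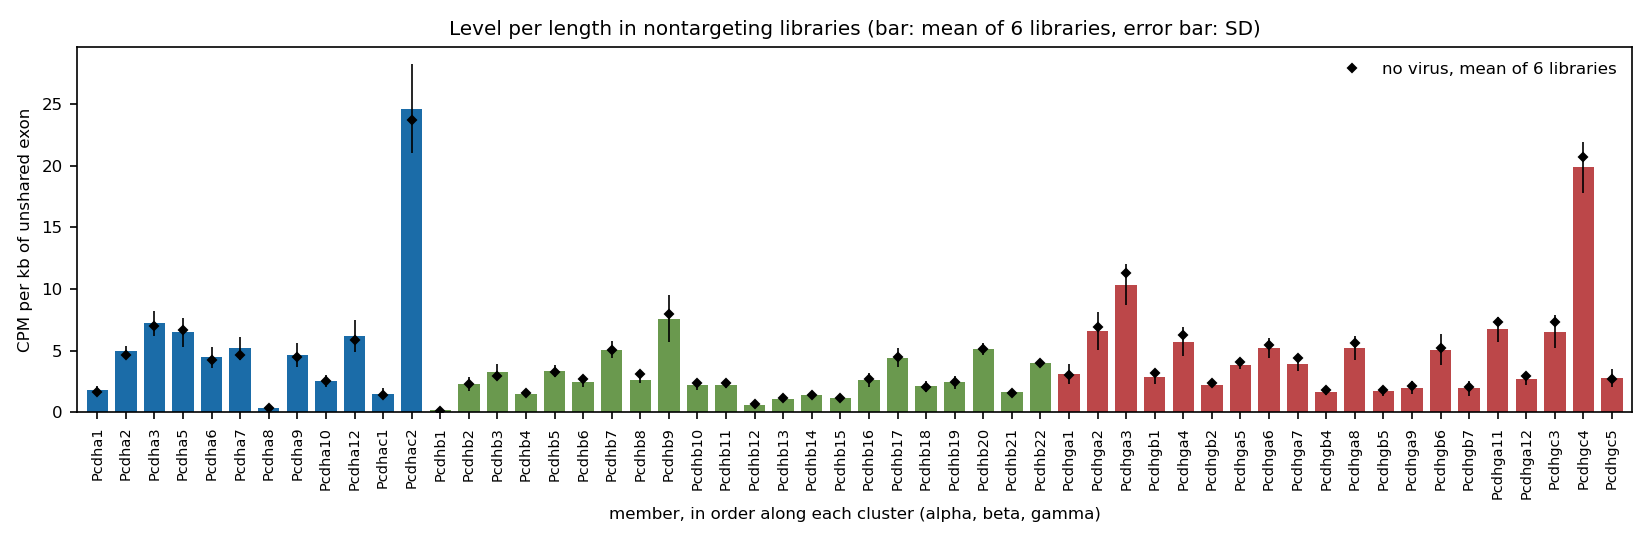
Level per length (CPM per kb of unshared exon, linear axis from 0) of the 54 tested members in order along each cluster, blue for alpha, green for beta and red for gamma. Bars are means of the 6 nontargeting libraries with SD, diamonds are means of the 6 libraries without virus. Pcdhac2 and Pcdhgc4 are the tallest bars, at 24.6 and 19.9.

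The lentivirus itself was followed by no called change in any member. Nontargeting libraries compared with those without virus gave 0 of 54 members past an adjusted p of 0.05 in edgeR's quasi-likelihood test, Benjamini-Hochberg adjusted, which was also 0% of all tested genes. No member had an unadjusted p under 0.05, and DESeq2 also called 0. Per length, Pcdhac2 stood at 23.8 CPM per kb and Pcdhgc4 at 20.7 without virus, both within the SD of the nontargeting libraries. Of 20 gamma members, 18 had a log2 fold change below 0, with a median of -0.11, and none passed the test. The gamma medians above 0 given below for Mbd5, Chd8 and Ash1l shRNA are relative to these nontargeting libraries.

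Across the 9 knockdowns, 2 stood out by the number of members called and each was centred on another cluster. Med13l shRNA lowered 33 of 54 members, 19 of them gamma. Mbd5 shRNA lowered 8 members, all alpha. The other 7 knockdowns had between 0 and 4 called members each. In total 40 of the 54 members were called in at least 1 knockdown and 9 of these in 2, where 44.5% of all tested genes were called in at least 1 and 14.1% in at least 2. All comparisons with the nontargeting group share its 6 libraries, so their results are not independent of each other. Each knockdown was also compared with the mean of the other 8 knockdowns, which uses no nontargeting library. Those comparisons all share the knockdown libraries, so they are not independent of each other either. A low value in 1 knockdown lowers the mean that the others are compared with.

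**Figure D2:**
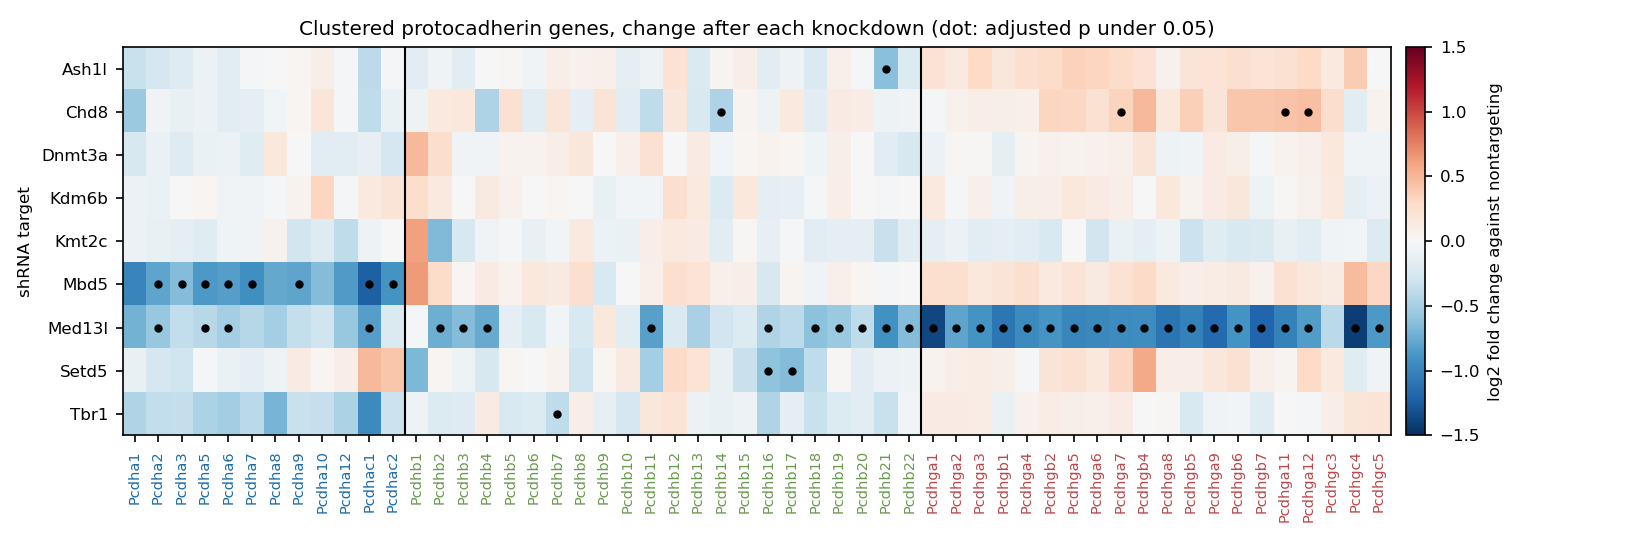
Log2 fold change of each tested member (columns, in order along the alpha, beta and gamma clusters) after each knockdown (rows) against the nontargeting libraries, mean of both sexes, on a colour scale from -1.5 in blue to 1.5 in red. Black dots mark adjusted p under 0.05; the Med13l row has 33 and the Mbd5 row 8, all within alpha.

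Med13l encodes a subunit of the kinase module of Mediator, the complex that links transcription factors to RNA polymerase. After Med13l shRNA the gamma cluster fell nearly throughout: 19 of 20 tested gamma members passed the test as lower, with 10 of 22 beta and 4 of 12 alpha members. Over all tested genes 12.3% were called lower in this comparison. The median log2 fold change was -0.96 for gamma, -0.39 for beta and -0.47 for alpha, against -0.01 for all genes. All 20 gamma and all 12 alpha members and 21 of 22 beta members were below 0, Pcdhb9 (0.16) being the exception, and these counts were the same with DESeq2's scaling of the libraries.

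The summed level of the tested gamma members was 286, 303 and 343 CPM in the nontargeting males and 247, 272 and 332 CPM in the nontargeting females. With Med13l shRNA it was 158, 158 and 179 CPM in males and 93.6, 141 and 165 CPM in females. Every Med13l library lay below every nontargeting library, and the mean of the 6 Med13l libraries was 50.1% of the nontargeting mean. The beta sums, 161 to 225 CPM against 203 to 270 CPM, overlapped, at 78.3% of the nontargeting mean. The alpha sums, 87.2 to 169 CPM against 137 to 208 CPM, overlapped as well.

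**Figure D3:**
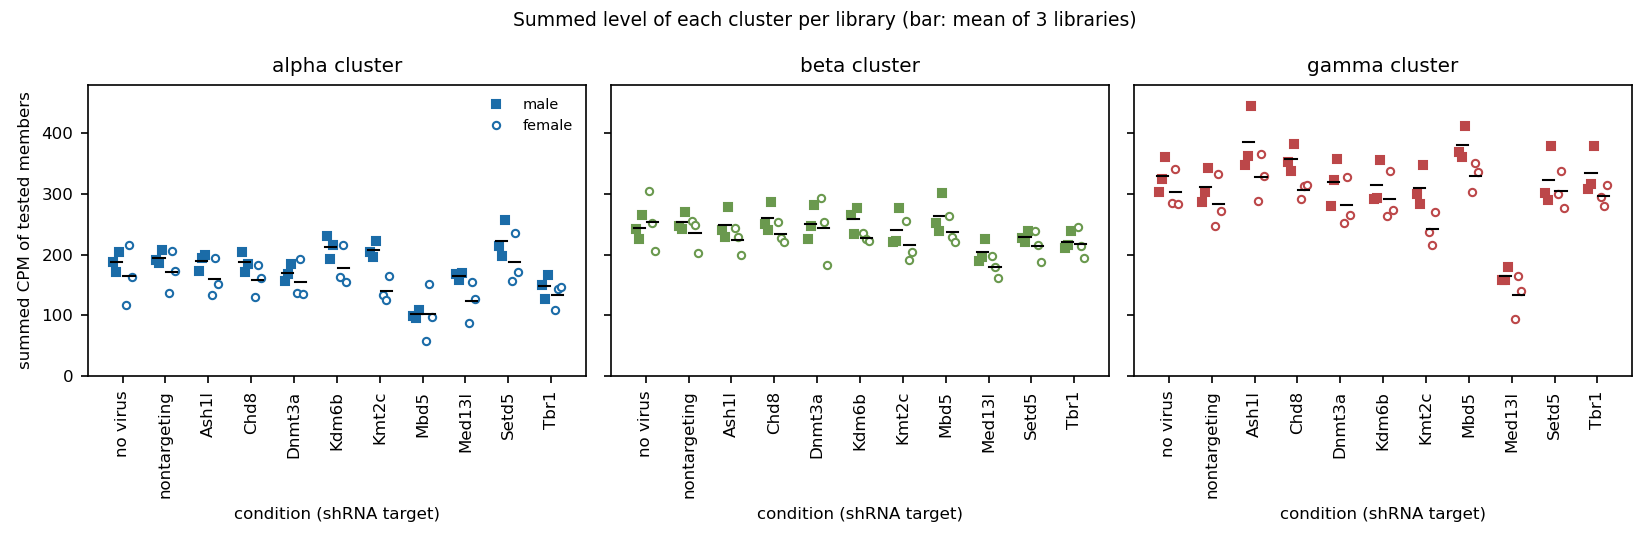
Summed CPM of the tested alpha, beta and gamma members in every library, by condition (axis from 0). Filled squares are male and open circles female libraries, and bars are means of 3 libraries. The Med13l libraries are the lowest gamma sums, 93.6 to 179 CPM against 247 to 343 CPM in the nontargeting libraries, and the Mbd5 libraries are low in alpha and not in gamma.

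Pcdhgc4, the most abundant gamma member, is a C-type gene required for the survival of interneurons. It stood at 61.9, 75.7 and 75.6 CPM in nontargeting males and at 74.8, 60.8 and 65.7 CPM in nontargeting females. In the Med13l libraries it stood at 28.8, 28.9 and 32.5 CPM in males and 18.9, 20.1 and 28.4 CPM in females. The groups did not overlap in either sex, and all 6 Med13l libraries were below the lowest nontargeting library. The log2 fold change was -1.41 (SE 0.136, adjusted p = 1.85e-11, edgeR's quasi-likelihood test, Benjamini-Hochberg adjusted), which was the smallest p among the members. Pcdhgc4 made up 12.2% to 20.2% of the gamma sum in Med13l libraries and 18.3% to 30.3% in nontargeting ones, ranges that overlap at the edge.

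The 2 other gamma C-type genes differed in their values. Pcdhgc5 was at 3.57 to 9.42 CPM (median 7.25) with Med13l shRNA and 9.60 to 17.9 CPM (median 11.2) in nontargeting libraries, with no overlap. Its log2 fold change was -0.86 (SE 0.211, adjusted p = 0.00176, edgeR's quasi-likelihood test). Pcdhgc3 was at 11.8 to 24.1 CPM (median 17.1) against 14.6 to 27.5 CPM (median 21.6), with most libraries in the shared range. At -0.40 (SE 0.178, adjusted p = 0.0945) Pcdhgc3 was the gamma member that did not pass. As a share of the gamma sum, Pcdhgc3 was 9.91% to 13.5% in Med13l libraries and 5.93% to 8.28% in nontargeting libraries, without overlap. DESeq2 called Pcdhgc3 lower.

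The variable gamma members fell by similar amounts. The Pcdhga subfamily had 11 of 11 tested members called lower, from -1.37 to -0.79 with a median of -0.97. The Pcdhgb subfamily had 6 of 6, from -1.20 to -0.89 with a median of -0.97. The members of these subfamilies are interleaved along the cluster, and their ranges of change overlapped.

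Pcdhga1, the first gamma promoter, had the lowest log2 fold change of the variable members, -1.37 (SE 0.187). Its nontargeting levels were 10.2, 12.4 and 11.6 CPM in males and 7.08, 12.5 and 6.59 CPM in females. With Med13l shRNA Pcdhga1 was at 4.24, 4.77 and 3.84 CPM in males and 2.51, 5.05 and 2.95 CPM in females. No Med13l library reached the lowest nontargeting one. Pcdhga7 stood at 12.4, 11.9 and 15.4 CPM in nontargeting males and 10.1, 12.03 and 11.1 CPM in nontargeting females. Its Med13l levels were 6.43, 6.82 and 7.02 CPM in males and 3.40, 7.99 and 6.12 CPM in females. Those groups were also apart, at a log2 fold change of -0.95 (SE 0.122, adjusted p = 4.28e-08, edgeR's quasi-likelihood test).

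The rest of the 6 members with the smallest p were variable gamma genes. Pcdhga6 ranged from 5.09 to 8.45 CPM (median 6.90) against 10.2 to 15.6 CPM (median 13.9), a log2 fold change of -0.97. Pcdhga5 ranged from 3.48 to 5.43 CPM (median 5.22) against 8.22 to 10.5 CPM (median 9.96), a log2 fold change of -0.98. Pcdhga3, the most abundant of the variable gamma members per length, ranged from 7.94 to 18.5 CPM (median 15.2) against 19.9 to 31.9 CPM (median 28.2), a log2 fold change of -0.90. In each of the 3 all Med13l libraries were below all nontargeting libraries. Counting every member, 21 of 54 showed this separation, against 5.22% of all tested genes.

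**Figure D4:**
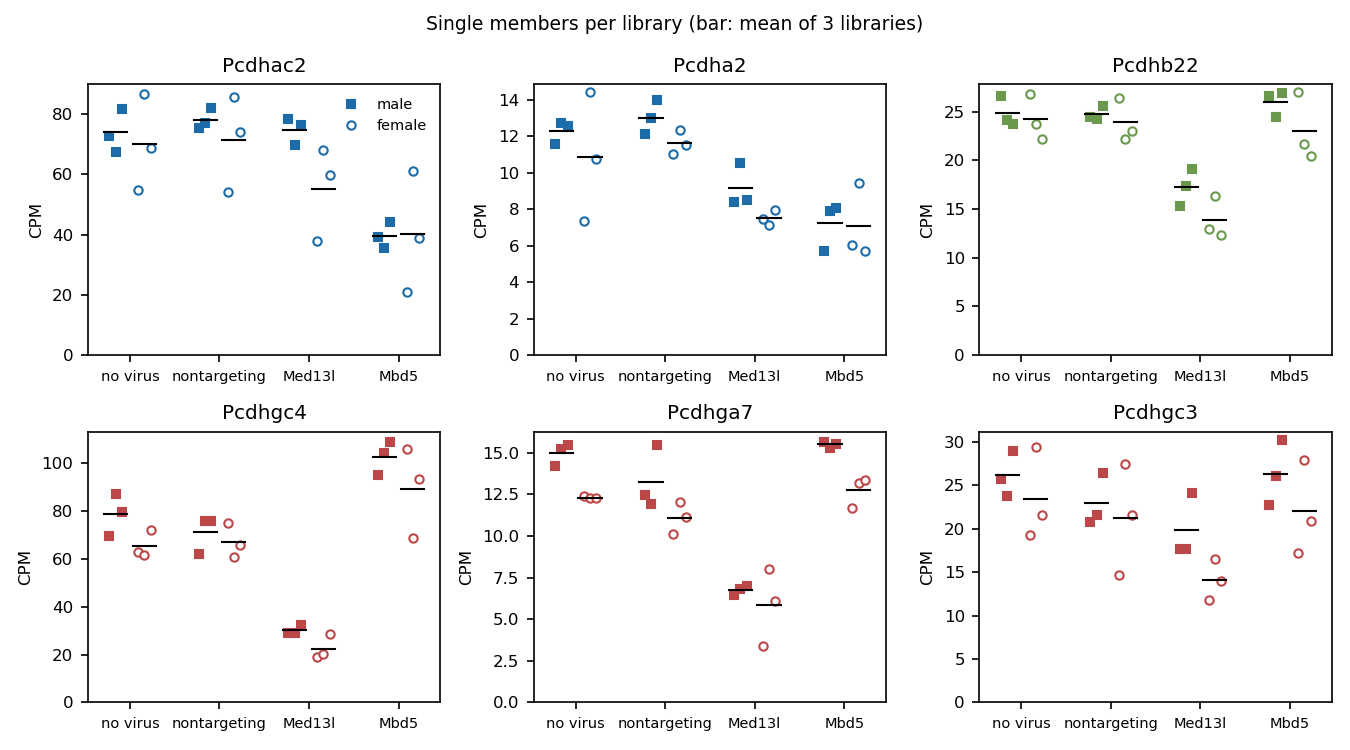
CPM of 6 members in every library without virus, with nontargeting shRNA, with Med13l shRNA and with Mbd5 shRNA (axes from 0). Filled squares are male and open circles female libraries, and bars are means of 3 libraries. Pcdhgc4, Pcdhga7 and Pcdhb22 are lowest with Med13l shRNA, Pcdhac2 is lowest with Mbd5 shRNA, Pcdha2 is lower with both than with nontargeting shRNA, and Pcdhgc3 overlaps throughout.

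In the beta cluster the 10 called members were Pcdhb2, Pcdhb3, Pcdhb4, Pcdhb11, Pcdhb16, Pcdhb18, Pcdhb19, Pcdhb20, Pcdhb21 and Pcdhb22, named together after their values were seen. Their log2 fold changes ran from -0.91 for Pcdhb21 to -0.38 for Pcdhb20. Pcdhb21, called in 2 knockdowns, was at 1.78 to 4.87 CPM (median 3.81) with Med13l shRNA and 5.25 to 8.59 CPM (median 6.44) in nontargeting libraries, without overlap. Pcdhb22, the last beta gene and so the one nearest the gamma cluster, was at 12.4 to 19.2 CPM (median 15.8) against 22.2 to 26.4 CPM (median 24.3), also without overlap. Pcdhb16 was at 6.81 to 14.1 CPM (median 10.3) against 9.46 to 17.9 CPM (median 13.6), and these groups overlapped. The 12 beta members that were not called ran from -0.49 for Pcdhb13 to 0.16 for Pcdhb9.

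Among alpha members, Pcdha2 fell by 0.57, Pcdha5 by 0.42, Pcdha6 by 0.51 and Pcdhac1 by 0.82 on the log2 scale with Med13l shRNA. Pcdha2 was at 7.14 to 10.5 CPM (median 8.19) against 11.02 to 13.95 CPM (median 12.2), with no overlap. Pcdhac2, the C-type gene that dominates the cluster, was at 37.8 to 78.3 CPM (median 68.8) against 54.3 to 85.6 CPM (median 76.0). Pcdhac2 overlapped with the controls and did not pass the test at -0.22 (SE 0.16, adjusted p = 0.346, edgeR's quasi-likelihood test). The female replicate 1 libraries had lower alpha sums than the other female libraries in general, with a median of 133 CPM over the 11 conditions against 192 for female replicate 2 and 155 for female replicate 3. The part of this replicate difference in the alpha calls was not tested.

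Med13l shRNA lowered gamma members in both sexes. In males 17 members were called lower (15 gamma, 2 beta), where 4.92% of all genes were. In females 25 were called lower (19 gamma, 5 beta, 1 alpha), where 5.49% of all genes were. The 17 in males were all among the 25 in females, which is 100% of the male and 68% of the female list. The test of male minus female effect called 0 of 54 members and 0% of all genes in edgeR, 0 members had an unadjusted p under 0.05, and DESeq2 called 0. Leaving out 1 library moved the male count to 11 without nontargeting male replicate 3, and the female count to 12 without Med13l female replicate 1 and 14 without nontargeting female replicate 2. Without the 2 libraries that go against their labels the female count was 24. The replicate numbers were taken to pair the female libraries. As a block they gave 40 lower members in females (20 gamma, 11 beta, 9 alpha), where 13.9% of all genes were lower.

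Compared with the other 8 knockdowns, Med13l shRNA lowered 33 members: all 20 gamma, 12 beta and 1 alpha, where 15.9% of all genes were called lower. Pcdhgc3 passed in this comparison. The alpha member was Pcdha2 (-0.32, SE 0.106, adjusted p = 0.0165, edgeR's quasi-likelihood test). Pcdhga5 had the smallest p, at -1.15 (SE 0.102, adjusted p = 4.16e-13). All 19 gamma calls, with Pcdhb2, Pcdhb4, Pcdhb11, Pcdhb20, Pcdhb21, Pcdhb22 and Pcdha2, were kept when each nontargeting or Med13l library was left out in turn. Of the remaining calls, Pcdhb19 was lost without nontargeting female replicate 2 (adjusted p = 0.0624), and Pcdhb3 was lost without that library, Med13l female replicate 1 or Med13l male replicate 3. Pcdhb16 and Pcdhb18 were each lost in 7 of 12 such fits, Pcdha6 and Pcdhac1 in 8, and Pcdha5 in 9.

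Marker sums of other cell types moved in part with Med13l shRNA. Of 4 inhibitory neuron markers 2 were called lower, with a summed 693 to 1300 CPM against 1010 to 1560 CPM in nontargeting libraries. Of 4 excitatory neuron markers 1 was higher, with 493 to 896 CPM against 488 to 661 CPM. Of 7 oligodendrocyte lineage markers 2 were lower, with 35.0 to 45.9 CPM against 40.7 to 51.3 CPM, and 1 of 6 astrocyte markers was lower, with 106 to 287 CPM against 92.5 to 166 CPM. Of 5 dividing progenitor markers 2 were lower, with 30.9 to 45.9 CPM against 33.3 to 55.2 CPM. None of the 6 neuron markers was called, with 4650 to 5640 CPM against 5200 to 5700 CPM. Over all genes 24.1% were called in either direction. The part of these shifts in the protocadherin result was not tested.

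Mbd5 encodes a protein with a methyl-CpG-binding domain that associates with a histone H2A deubiquitinase complex. After Mbd5 shRNA the calls lay in the alpha cluster: 8 of 12 tested alpha members were called lower, no beta and no gamma member was called, and 0.564% of all genes were called lower. All 12 alpha members were below 0, with a median log2 fold change of -0.84, while all 20 gamma members were above 0 with a median of 0.18, the beta median was 0.08 and the median of all genes was 0. The signs were the same with DESeq2's scaling.

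**Figure D5:**
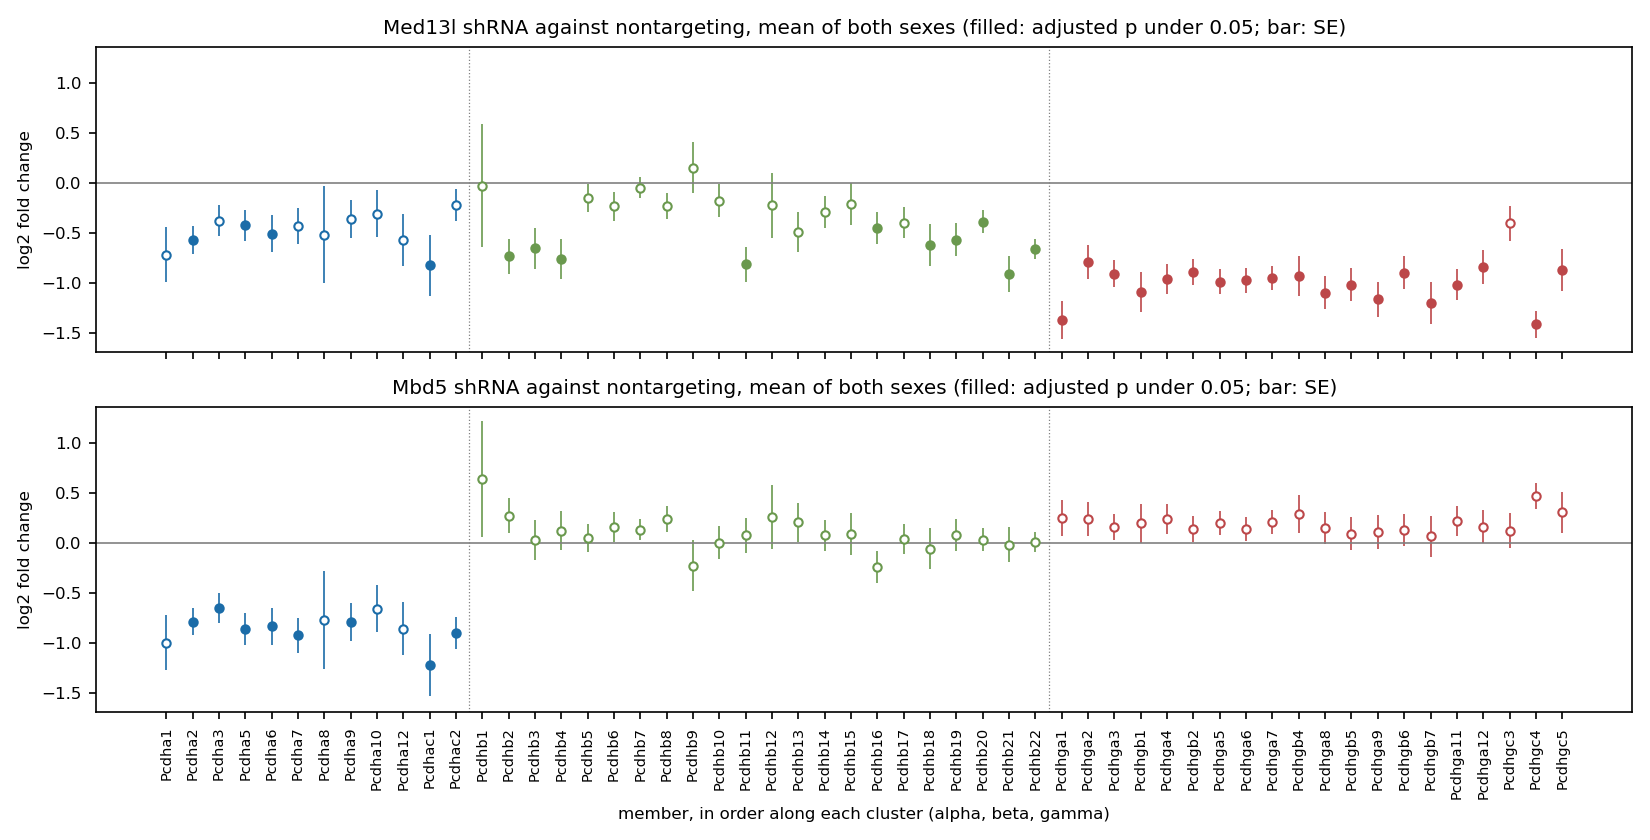
Log2 fold change of each tested member after Med13l shRNA (top) and Mbd5 shRNA (bottom) against the nontargeting libraries, mean of both sexes, with SE; blue is alpha, green beta and red gamma, and filled points have adjusted p under 0.05. With Med13l shRNA the gamma points lie between -1.41 and -0.40, and with Mbd5 shRNA the alpha points lie between -1.22 and -0.65 and the gamma points above 0.

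The summed alpha level was 186, 191 and 208 CPM in nontargeting males and 137, 173 and 206 CPM in nontargeting females. With Mbd5 shRNA it was 96.2, 99.4 and 109 CPM in males and 57.5, 97.2 and 151 CPM in females. In males the groups were apart. In females the highest Mbd5 library, replicate 2, lay above the lowest nontargeting library, replicate 1. The mean over both sexes was 55.5% of the nontargeting mean. The gamma sums were 304 to 412 CPM with Mbd5 shRNA against 247 to 343 CPM, overlapping, at 120% of the nontargeting mean.

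Pcdhac2 carried the most alpha RNA, and it fell with the rest. It was at 75.2, 76.8 and 81.8 CPM in nontargeting males and 54.3, 85.6 and 73.9 CPM in nontargeting females. With Mbd5 shRNA it was at 39.2, 35.5 and 44.2 CPM in males and 20.9, 61.2 and 38.9 CPM in females. Mbd5 female replicate 2, at 61.2 CPM, was the 1 Mbd5 library above the lowest nontargeting value. The log2 fold change of Pcdhac2 was -0.90 (SE 0.161, adjusted p = 0.000845, edgeR's quasi-likelihood test, Benjamini-Hochberg adjusted). Its share of the alpha sum was 36.4% to 40.6% with Mbd5 shRNA and 39.4% to 42.6% in nontargeting libraries, ranges that overlap.

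Pcdha7 was at 9.62, 10.6 and 15.0 CPM in nontargeting males and 9.84, 10.5 and 10.8 CPM in nontargeting females. With Mbd5 shRNA Pcdha7 was at 5.07, 6.34 and 5.90 CPM in males and 4.15, 7.65 and 5.78 CPM in females, all below every control. Its log2 fold change was -0.92 (SE 0.178, adjusted p = 0.00194, edgeR's quasi-likelihood test). Pcdha2 had the smallest p of the members, at -0.79 (SE 0.138, adjusted p = 0.000598), with 5.70 to 9.44 CPM (median 6.95) against 11.02 to 13.95 CPM (median 12.2). Pcdha2 and Pcdha7 were the 2 of 54 members with all 6 Mbd5 libraries below all 6 nontargeting libraries, a pattern seen in 0.805% of all tested genes.

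Pcdha5 ranged from 4.48 to 11.03 CPM (median 8.26) against 10.9 to 19.1 CPM (median 15.6), a log2 fold change of -0.86. Pcdha6 ranged from 2.95 to 7.89 CPM (median 5.96) against 7.32 to 12.6 CPM (median 10.6), a log2 fold change of -0.83. Pcdha3 ranged from 7.01 to 15.9 CPM (median 11.2) against 14.3 to 20.8 CPM (median 17.9), a log2 fold change of -0.65. In all 3 the groups overlapped only at the edge. Pcdhac1, the other alpha C-type gene, was low throughout, at 0.871 to 2.92 CPM (median 1.58) against 2.36 to 5.74 CPM (median 3.72). Pcdhac1 had the lowest log2 fold change and a wide error, -1.22 (SE 0.309, adjusted p = 0.0413, edgeR's quasi-likelihood test). The eighth called member, named after its values were seen, was Pcdha9 (-0.79, SE 0.194). The 4 alpha members that did not pass were Pcdha1 (-0.995), Pcdha8 (-0.77), Pcdha10 (-0.66) and Pcdha12 (-0.86), also named after their values were seen.

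In the gamma cluster Pcdhgc4 had the highest value with Mbd5 shRNA. It was at 95.0, 104 and 109 CPM in males and 106, 68.7 and 93.3 CPM in females, against 60.8 to 75.7 CPM in the nontargeting libraries. Mbd5 female replicate 2 was the 1 library within the control range. At a log2 fold change of 0.47 (SE 0.133) Pcdhgc4 did not pass the test against the nontargeting libraries (adjusted p = 0.0942, edgeR's quasi-likelihood test). The replicate numbers were taken to pair the Mbd5 libraries with the controls, and with the replicate number as a block 12 members were called. These were 11 alpha members lower, all but Pcdha8, where 2.37% of all genes were lower, and Pcdhgc4 higher (0.46, adjusted p = 0.000586), where 0.954% of all genes were higher.

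Each sex alone gave 0 called members with Mbd5 shRNA, where few genes were called at all (0.0619% of all genes in males and 0.0557% in females, edgeR's quasi-likelihood test). In males 12 members and in females 10 had an unadjusted p under 0.05, and DESeq2 called 4 in males and 0 in females. All 12 alpha members were below 0 in each sex, with medians of -0.96 in males and -0.74 in females. All 20 gamma members were above 0 in each sex. The male minus female test called 0 members and 0% of all genes. With the replicate number as a block, 11 members were called in males and 8 in females, where 158 and 74 of 16145 genes were.

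Set against the other 8 knockdowns, Mbd5 shRNA had 10 alpha members lower, where 2.54% of all genes were lower. Pcdhgc4 (0.65, SE 0.0941, adjusted p = 3.45e-06, edgeR's quasi-likelihood test) and Pcdhb2 (0.41) were higher, where 3.17% of all genes were higher. When Med13l, in which Pcdhgc4 and Pcdhb2 are low, was left out of the other knockdowns, 11 alpha members were lower and Pcdhgc4 stayed higher, where 5.53% of all genes were called in either direction. That comparison was added after the data were seen. The count fell from 12 to 7 without Mbd5 female replicate 1.

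Single libraries moved the Mbd5 count of 8 against the nontargeting group. It was 4 without nontargeting female replicate 2, Mbd5 female replicate 1 or Mbd5 female replicate 3, 5 without nontargeting male replicate 1 or Mbd5 male replicate 1, and at most 10, without Mbd5 female replicate 2. In females alone, 3 were called without Mbd5 female replicate 2. The calls of Pcdha2, Pcdha5, Pcdha7 and Pcdhac2 were kept in all 12 such fits. Pcdha6 was lost in 3, Pcdha3 in 6, Pcdha9 in 8 and Pcdhac1 in 9 of the 12. No gene of the 9 marker lists was called with Mbd5 shRNA. Inhibitory neuron markers summed to 979 to 1290 CPM, within the nontargeting range of 1010 to 1560 CPM but for its lower end, and dividing progenitor markers to 34.9 to 80.6 CPM against 33.3 to 55.2 CPM.

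Members called with more than 1 of these knockdowns are given side by side here, and the comparisons share their nontargeting libraries. For Pcdha2 the log2 fold changes were -0.57 with Med13l and -0.79 with Mbd5 shRNA, and neither call was lost when 1 library was left out. Pcdha5 had -0.42 and -0.86, Pcdha6 -0.51 and -0.83, and Pcdhac1 -0.82 and -1.22. The Med13l calls of these 3 were lost in 9, 8 and 8 of 12 such fits and the Mbd5 calls in 0, 3 and 9. Pcdhga7, Pcdhga11 and Pcdhga12 had -0.95, -1.02 and -0.84 with Med13l shRNA and 0.33, 0.42 and 0.46 with Chd8 shRNA. The Med13l calls of these gamma members were kept in all 12 fits, and the Chd8 calls were lost in 8, 6 and 8. In the beta cluster Pcdhb21 was called lower with Med13l and Ash1l shRNA, and Pcdhb16 with Med13l and Setd5 shRNA. For Pcdhb21 the Med13l call was lost in 0 and the Ash1l call in 5 of 12 such fits. For Pcdhb16 the Med13l call was lost in 7 and the Setd5 call in 4.

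Chd8 encodes a chromatin remodelling ATPase. After Chd8 shRNA 3 gamma members were called higher, where 9.85% of all genes were higher, and 1 beta member lower, where 12.5% were lower, so the members' share of calls was not above that of all genes. Of the 20 gamma members 18 were above 0, with a median of 0.25, while the alpha and beta medians were -0.09 and -0.07. The gamma sums were 291 to 382 CPM against 247 to 343 CPM, overlapping, at 112% of the nontargeting mean.

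Pcdhga7 was at 15.7, 17.1 and 16.4 CPM in Chd8 males and 14.1, 13.4 and 15.2 CPM in Chd8 females, against the 10.1 to 15.4 CPM of the controls. Pcdhga11 was at 20.3 to 29.4 CPM (median 22.6) with Chd8 shRNA and 14.01 to 20.9 CPM (median 17.6) in nontargeting libraries. Pcdhga12 was at 14.2 to 24.0 CPM (median 15.9) against 8.81 to 15.4 CPM (median 11.9). In each of these 3 the groups overlapped at the edge. Pcdhb14 was at 9.34, 9.00 and 9.71 CPM in Chd8 males and 8.71, 7.84 and 8.14 CPM in Chd8 females. In the controls Pcdhb14 was at 11.5, 12.2 and 13.0 CPM in males and 13.7, 11.7 and 10.2 CPM in females. It was the 1 member with all 6 Chd8 libraries below all 6 controls, as were 7.09% of all genes, at a log2 fold change of -0.46 (SE 0.157, adjusted p = 0.0279, edgeR's quasi-likelihood test).

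The Chd8 count depended on single libraries. The count of 4 fell to 0 without nontargeting female replicate 1, to 1 without nontargeting male replicate 1 or 2, and to 2 without nontargeting female replicate 3, Chd8 female replicate 1 or Chd8 male replicate 3, and rose to 9 without nontargeting female replicate 2. Without the 2 libraries that go against their labels it was 5. The replicate numbers were taken to pair the Chd8 libraries with the controls. With the replicate number as a block 11 gamma members were higher, where 17.5% of all genes were higher. In that fit Pcdha1, Pcdhb4, Pcdhb11 and Pcdhb14 were lower, where 19.4% of all genes were. Against the other 8 knockdowns 14 members were higher (10 gamma, 3 beta, 1 alpha), where 17.6% of all genes were higher, and 2 were lower, where 16.7% were. With Med13l left out of the other knockdowns, 5 members were higher and 4 lower, where 33.9% of all genes were called, and 7 members were shared with the comparison that included it. Of the marker lists, 2 of 4 inhibitory and 2 of 4 excitatory neuron markers and 1 of 6 astrocyte markers were called lower with Chd8 shRNA. Of the 6 neuron markers 1 was called higher and 2 lower, with a summed 5020 to 5900 CPM against 5200 to 5700 CPM. Over all genes 22.3% were called in either direction. Astrocyte markers summed to 52.1 to 168 CPM against 92.5 to 166 CPM, and the part of these in the result was not tested.

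Setd5 encodes a SET domain protein of chromatin. Setd5 shRNA lowered 2 beta members, where 3.46% of all genes were lower. Among the tested members the share of lower calls was near that of all genes. Pcdhb17 was at 19.6, 19.9 and 25.0 CPM in nontargeting males and 23.3, 20.8 and 14.7 CPM in nontargeting females. With Setd5 shRNA Pcdhb17 was at 21.5, 11.2 and 15.1 CPM in males and 10.5, 12.8 and 8.86 CPM in females. The library at 21.5 CPM is the one labelled Setd5 male replicate 1, in which Setd5 was not lowered, and the other 5 were at or near the bottom of the control range or below it. The log2 fold change of Pcdhb17 was -0.65 (SE 0.155, adjusted p = 0.00639, edgeR's quasi-likelihood test), and its call was kept with each library left out. Pcdhb16, at 5.63 to 13.2 CPM (median 8.29) against 9.46 to 17.9 CPM (median 13.6), overlapped, with a log2 fold change of -0.60 (SE 0.161). Without both libraries that go against their labels Pcdhb17 was at -0.79 (adjusted p = 0.000184), Pcdhb16 at -0.62 (adjusted p = 0.0188) and Pcdhb11 at -0.60 (adjusted p = 0.0424).

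The count of 2 was 3 without those libraries and 1 without nontargeting female replicate 2, nontargeting male replicate 3 or Setd5 male replicate 2. Males alone gave 0 calls, with 2 members at an unadjusted p under 0.05 and 0 called by DESeq2. In females Pcdhb17 was lower, where 2.14% of all genes were lower, and Pcdhgb4 was higher (1.12, SE 0.272), where 0.979% were higher. The Pcdhgb4 value came from Setd5 female replicate 1, at 21.5 CPM, since the other Setd5 females were at 5.71 and 7.81 CPM and the control females at 4.64 to 6.56 CPM. Without that library, or without nontargeting female replicate 1, the female count was 0, and it was 1 without nontargeting female replicate 2 or 3 or Setd5 female replicate 3. The male minus female test called 0 of 54 members in edgeR and in DESeq2, with an unadjusted p of 0.00587 for Pcdhgb4.

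The alpha C-type genes had higher values with Setd5 shRNA, and the call depended on the comparison. Pcdhac2 was at 95.2, 95.7 and 128 CPM in Setd5 males and 86.3, 110 and 83.1 CPM in Setd5 females, against 54.3 to 85.6 CPM in the controls. At 0.42 (SE 0.16, adjusted p = 0.126, edgeR's quasi-likelihood test) it did not pass against the nontargeting libraries. Its share of the alpha sum was 44.5% to 55.1% in Setd5 libraries, above the 39.4% to 42.6% of the controls. The 44.5% is that of the library labelled Setd5 male replicate 1, and the other 5 were at 46.7% to 55.1%. Without both libraries that go against their labels Pcdhac2 was at 0.46 (SE 0.167, adjusted p = 0.0916). Pcdhac1 was at 4.51 to 7.39 CPM (median 5.22) against 2.36 to 5.74 CPM (median 3.72), with a log2 fold change of 0.48 (SE 0.299). With the replicate number, which was taken to pair these libraries, as a block, 5 members were higher (Pcdhac1, Pcdhac2, Pcdhga7, Pcdhgb4 and Pcdhga12), where 7.32% of all genes were higher. The Pcdhgb4 value there includes Setd5 female replicate 1, the library behind its value in females. In that fit Pcdhb11, Pcdhb16, Pcdhb17 and Pcdhb18 were lower, where 8.91% of all genes were lower. Neither share of the tested members in that fit was far from that of all genes.

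Setd5 shRNA had 4 members higher against the other 8 knockdowns, where 7.11% of all genes were. These were Pcdhac1 (0.96, SE 0.210, adjusted p = 0.00103), Pcdhac2 (0.62, SE 0.113, adjusted p = 9.6e-05, edgeR's quasi-likelihood test), Pcdhga7 (0.30) and Pcdhgb4 (0.55). Against the nontargeting libraries the same test gave 0.48 for Pcdhac1 (adjusted p = 0.422) and 0.42 for Pcdhac2 (adjusted p = 0.126). The mean of the other 8 includes Mbd5 shRNA, with which both were called lower, and Tbr1 shRNA, with which both were below 0. The Pcdhgb4 value includes Setd5 female replicate 1, the library behind its value in females. Pcdhb8, Pcdhb11, Pcdhb16 and Pcdhb17 were lower than in the other 8, where 7.18% of all genes were. The tested members' shares of higher and of lower calls were both near those of all genes. The count of 8 became 5 without Setd5 female replicate 1 or Setd5 male replicate 3. Without both libraries that go against their labels the count was 8, with Pcdhac1 at 0.95 (adjusted p = 0.00337), Pcdhac2 at 0.67 (adjusted p = 8.68e-05) and Pcdhb16 at -0.43 (adjusted p = 0.0332). With Med13l left out of the other knockdowns, and Mbd5 and Tbr1 still among them, 7 of the 8 were kept, where 12.9% of all genes were called.

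Ash1l encodes a histone H3 lysine 36 methyltransferase. With Ash1l shRNA 1 member was called, Pcdhb21, where 3.49% of all genes were lower. The members' share of lower calls was not above that of all genes. Pcdhb21 was at 4.50, 4.24 and 6.28 CPM in males and 3.40, 4.34 and 3.65 CPM in females. The controls were at 6.32, 8.59 and 7.64 CPM in males and 6.41, 6.46 and 5.25 CPM in females. Within each sex the groups did not overlap, and the log2 fold change was -0.63 (SE 0.178, adjusted p = 0.0209, edgeR's quasi-likelihood test). The count was 0 without Ash1l female replicate 1 or 3, Ash1l male replicate 1 or 2 or nontargeting male replicate 2, and 2 without nontargeting male replicate 3. In the gamma cluster 19 of 20 members were above 0 with a median of 0.23, and none was called. Against no virus, the nontargeting libraries themselves were below 0 in 18 of 20 gamma members, with a median of -0.11. Pcdhgc4 had 0.39 (SE 0.133, adjusted p = 0.0749), at 73.3 to 124 CPM (median 86.0) against 60.8 to 75.7 CPM (median 70.2).

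With Ash1l shRNA 8 gamma members were higher than in the other 8 knockdowns, where 9.27% of all genes were higher, and Pcdhb21 was lower, where 7.14% were. Pcdhgc4 had the smallest p, at 0.55 (SE 0.0949, adjusted p = 1.76e-05, edgeR's quasi-likelihood test). With Med13l left out of the other knockdowns 3 calls were kept, Pcdhb21, Pcdhga6 and Pcdhgc4, where 15.1% of all genes were called. The count of 9 was 5 without Ash1l female replicate 2 and 4 without Ash1l female replicate 3 or Ash1l male replicate 3. Of 4 inhibitory neuron markers 3 were called lower with Ash1l shRNA, with a summed 537 to 820 CPM against 1010 to 1560 CPM. Of 4 excitatory neuron markers 1 was called higher, with 657 to 767 CPM against 488 to 661 CPM. Of 5 dividing progenitor markers 1 was called lower, with 23.7 to 44.9 CPM against 33.3 to 55.2 CPM. Over all genes 6.16% were called in either direction. The part of these shifts in the result was not tested.

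Tbr1 encodes a transcription factor of deep-layer cortical neurons. With Tbr1 shRNA 1 member was called, Pcdhb7, where 1.08% of all genes were lower. Pcdhb7 was at 13.2, 14.01 and 11.4 CPM in males and 13.4, 18.1 and 11.5 CPM in females, against 18.6, 18.8 and 18.1 CPM in control males and 18.8, 19.2 and 12.8 CPM in control females. The male groups were apart and the female groups overlapped, and the log2 fold change was -0.38 (SE 0.104, adjusted p = 0.0484, edgeR's quasi-likelihood test). The call was kept without nontargeting female replicate 3 or Tbr1 female replicate 2 and lost without any 1 of the other 10 libraries.

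All 12 alpha members were below 0 with Tbr1 shRNA, from -0.95 to -0.32 with a median of -0.43, and none was called without a block. The signs were the same with DESeq2's scaling. The alpha sums were 109 to 167 CPM against 137 to 208 CPM, overlapping, at 76.7% of the nontargeting mean. Pcdhac1 was at 1.29 to 2.89 CPM (median 2.04) against 2.36 to 5.74 CPM (median 3.72), a log2 fold change of -0.95 (SE 0.307, adjusted p = 0.127). The replicate numbers were taken to pair these libraries. With them as a block 9 members were lower (Pcdha3, Pcdha5, Pcdha6, Pcdha7, Pcdha12, Pcdhac1, Pcdhb7, Pcdhb16 and Pcdhb18), where 4.45% of all genes were lower. Against the other 8 knockdowns Pcdhb7 was lower (-0.44), where 3.27% of all genes were, and Pcdhgc4 higher (0.33), where 2.5% were. Only Pcdhb7 was kept with Med13l left out, where 6.11% of all genes were called, and the count was 1 without Tbr1 female replicate 1 or 3 or Tbr1 male replicate 2 or 3. Of the 6 neuron markers 1 was called lower with Tbr1 shRNA, with a summed 4590 to 4810 CPM against 5200 to 5700 CPM, and its part in the result was not tested.

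Kmt2c encodes a histone H3 lysine 4 methyltransferase. Kmt2c shRNA gave 0 called members in edgeR's quasi-likelihood test, where 0.694% of all genes were called, with 2 at an unadjusted p under 0.05 and 1 called by DESeq2. All 20 gamma members were below 0 (19 with DESeq2's scaling), with a median of -0.16. By sex, 20 of 20 were below 0 in females, with a median of -0.26, and 12 of 20 in males, with a median of -0.04. The gamma sums of Kmt2c female replicates 1, 2 and 3 were 237, 217 and 271 CPM. Those of the same-numbered nontargeting females were 247, 332 and 272 CPM, so only replicate 2 lay far below its control. The part of this library in the female values was not tested. Pcdhb2 came nearest, at 3.02 to 5.66 CPM (median 3.90) against 4.05 to 8.31 CPM (median 6.36), a log2 fold change of -0.66 (SE 0.176, adjusted p = 0.0645). The count was 1 without nontargeting female replicate 1. The replicate numbers were taken to pair these libraries. As a block they gave 2 lower members, Pcdhb2 and Pcdha12, where 2.02% of all genes were lower. Against the other 8 knockdowns Pcdhb2 (-0.64, SE 0.140, adjusted p = 0.00175) and Pcdhga6 (-0.29) were lower, where 2.63% of all genes were, and the count was 1 in 17 of 54 fits that left out 1 library, among them those without each Kmt2c library. With Med13l left out of the other knockdowns 6 members were lower, 5 gamma (Pcdhgb2, Pcdhga6, Pcdhga7, Pcdhgb5 and Pcdhgb6) and Pcdhb2, where 7.02% of all genes were called in either direction.

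Dnmt3a, the de novo DNA methyltransferase, and Kdm6b, a histone H3 lysine 27 demethylase, gave 0 called members against the nontargeting group in edgeR and 0 in DESeq2. For Dnmt3a 1.4% of all genes were called and 1 member had an unadjusted p under 0.05. For Kdm6b 0.966% of all genes were called and 0 members had an unadjusted p under 0.05. Cluster medians lay between -0.14 and 0.05 for Dnmt3a and between -0.01 and 0.08 for Kdm6b. Against the other 8 knockdowns Pcdhb2 (0.39) and Pcdhb11 (0.41) were higher with Dnmt3a shRNA, where 3.3% of all genes were, and 0 members were called with Med13l left out or without Dnmt3a female replicate 1 or any Dnmt3a male. Pcdha10 (0.49) and Pcdhac2 (0.37) were higher with Kdm6b shRNA in that comparison, where 5.96% of all genes were. Without the 2 libraries that go against their labels 0 members were called, as without Kdm6b male replicate 1 alone or Kdm6b female replicate 2. Leaving out 1 library moved the Dnmt3a count to 0 or 1 in 33 of 54 fits and the Kdm6b count to 0, 1 or 4 in 37 of 54.

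The C-type genes differed in direction across the knockdowns. Pcdhgc4 ranged from -1.41 with Med13l to 0.47 with Mbd5 shRNA, Pcdhgc5 from -0.86 with Med13l to 0.31 with Mbd5, and Pcdhgc3 from -0.40 with Med13l to 0.27 with Chd8. Pcdhac1 ranged from -1.22 with Mbd5 to 0.48 with Setd5 shRNA, and Pcdhac2 from -0.90 with Mbd5 to 0.42 with Setd5. Only the Med13l values of Pcdhgc4, Pcdhgc5 and Pcdhac1 and the Mbd5 values of Pcdhac1 and Pcdhac2 passed the test against the nontargeting group.

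Genes that flank or lie among the clusters and other lists are read against the share of all genes called in either direction. This share was 24.1% with Med13l, 22.3% with Chd8, 6.16% with Ash1l and 5.3% with Setd5 shRNA. With the replicate block, where the numbers were taken to pair the libraries, it was 36.9% for Chd8, 16.2% for Setd5, 6.97% for Dnmt3a, 6.57% for Tbr1, 3.32% for Mbd5 and 2.97% for Kmt2c. Of 14 genes that flank or lie among the clusters, 1 was higher and 1 lower with Med13l shRNA, Hdac3 (0.18) and Dnd1 (-0.62), and none was called with Mbd5 shRNA, where the list's median was -0.01. Chd8 shRNA raised Diaph1 (0.59) and lowered Rell2 (-0.83) and Fchsd1 (-0.47). Dnd1 was lower with Ash1l shRNA (-0.78), Hars2 higher with Kdm6b (0.48) and Hdac3 higher with Setd5 (0.22). With the block, 2 of the 14 were higher and 2 lower with Chd8, 3 higher with Setd5 and 1 lower with Dnmt3a shRNA.

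The proteins that shape or silence the clusters were measured in the same libraries. Of 11 genes for CTCF and cohesin, Med13l shRNA raised Pds5a (0.35) and lowered Mau2 (-0.32), and Chd8 shRNA raised Pds5a (0.22) and lowered Mau2 (-0.70), a partner of the cohesin loader. None of the 11 was called in the other 7 knockdowns without the block. With it 3 were higher and 1 lower with Chd8, and 1 was lower with Tbr1 shRNA. Of 13 genes for repressors and DNA methylation, Med13l shRNA changed 5, 2 higher and 3 lower. These were led by Wiz (-1.92, SE 0.204, adjusted p = 3.09e-10, edgeR's quasi-likelihood test), a zinc finger partner of the H3 lysine 9 methyltransferases, and Rest (0.58), a repressor of neuronal genes. Chd8 shRNA changed 4 of the 13, led by Ehmt1 (0.59), Ehmt2 (-0.45) and Smchd1 (0.33). Dnmt1 was higher with Ash1l shRNA (0.31) and Setdb1 lower with Setd5 shRNA (-0.24). With Dnmt3a shRNA the 1 gene called was Dnmt3a itself, and with Mbd5, Kdm6b, Kmt2c and Tbr1 shRNA none was, while the block gave 1 lower with Kmt2c shRNA.

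Of 12 non-clustered protocadherins, which lie outside the clusters, Chd8 shRNA lowered Pcdh10 (-1.08) and Pcdh1 (-0.74), and none was called in another knockdown without the block. With the block 3 were lower and 1 higher with Chd8, 3 lower with Setd5, 2 lower with Dnmt3a and 1 lower with Mbd5 shRNA, Pcdh17 (-0.86, adjusted p = 5.81e-06, named after its value was seen). Of 13 signalling partners of protocadherin tails, Chd8 shRNA raised Fyn (0.25) and Ptk2b (0.58) and lowered Cdc42 (-0.49). Ptk2, the focal adhesion kinase, was lower with Med13l shRNA (-0.35), Rac1 was lower with Dnmt3a shRNA (-0.46) and Fyn was higher with Setd5 shRNA (0.26). With the block 6 of the 13 were higher and 1 lower with Chd8, 3 higher with Setd5, 2 lower with Dnmt3a, 1 lower with Kmt2c and 1 lower with Tbr1 shRNA. The medians of the non-clustered list, -0.17 with Med13l and -0.13 with Mbd5 shRNA, were nearer to 0 than those of the clusters that fell.

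Precision was like that of other genes. The biological coefficient of variation had a median of 0.222 for alpha, 0.197 for beta and 0.191 for gamma members against 0.203 for all tested genes. Alpha and gamma members share 3′ constant exons, and how the counting treated reads in them is not given in the sources used here, so reads from shared exons, if counted, cannot be assigned to 1 member.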

How the data were processed

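The authors deposited 1 table of whole-number read counts per gene, not normalized. STAR, featureCounts and mm10 are named in the submitters' processing notes, and their settings and the annotation are not given in the sources used here. Rows without a symbol (18483 of 48716, 0.69% to 1.41% of counts) were left out, 149 repeated symbols were summed, and 6 of 72 library columns belong to no sample used here. Low counts were mostly even (26.7% odd between 1 and 20, 49.1% at 1000 or more), so counts halved were tried. Replicates differed by more than sampling noise (chi-square per gene 7.92 to 386).

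Counts were analysed with R 4.3.3 and edgeR 4.0.16: filterByExpr, TMM factors (0.874 to 1.06), quasi-likelihood F test with robust estimation, 1 mean per group over 66 libraries, and Benjamini-Hochberg adjustment over 16145 genes, with a threshold of 0.05. Knockdown effects are means of the male and female effects. CPM is relative to TMM-scaled library sizes. The tests were tried on simulated data. Replicate numbers were taken as pairs where same-numbered libraries deviated together (every correlation over 0.1), which held in both sexes for Chd8, Dnmt3a, Kmt2c, Mbd5, Setd5 and Tbr1. This pairing was read from these data and is not given in the labels. The lowest correlation was 0.104 for Dnmt3a males and 0.123 for Chd8 males, against 0.329 for Chd8 females. Libraries of different numbers were not compared, and the block was fitted to all groups, paired or not. Alternatives were DESeq2 1.42.0 and its size factors, no filter, the replicate block, no virus as control, and leaving out libraries. Gene models for lengths are GENCODE M21 on GRCm38, where the model used for Pcdha10 is named Pcdha11 (matched by RefSeq).

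The members and gene lists were chosen with earlier results of these data known. Genes named are the C-type members, up to 6 called members per knockdown by p, members called in 2 or more knockdowns, the highest and lowest level per cluster, up to 3 called genes per other list and knockdown, and members not tested. A gene of these lists is not reported here. No sequence is printed. Reads amplified by PCR do not each stand for 1 molecule, so errors rest on the replicates.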

Additional observations from a re-analysis of the deposited data

How the results depend on the processing

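Of the 49 called member values, DESeq2 kept 49, DESeq2's size factors in edgeR 48, halved counts 48, omission of the 2 libraries that go against their labels 48, the no virus libraries as control 42 and no filter on low counts 40. Leaving out 1 library at a time kept 474 of 588 and reversed 0. The block on replicate number kept all 49 and raised most counts. The numbers did not pair the libraries of Ash1l males, Med13l males or Kdm6b in either sex, where they are only numbers. There the block gave, for Med13l, 5 of 14 flanking genes higher and 4 lower, 2 of 13 signalling partners higher and 5 lower, and 5 of 12 non-clustered protocadherins lower. Over all genes the block called 6705 of 16145 with Med13l shRNA in either direction. Of the 11 CTCF and cohesin genes 2 were then higher with Ash1l and 1 with Kdm6b shRNA, where 2784 and 1270 of 16145 genes were called.

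Counts of called members in the mean of both sexes were as follows. With DESeq2 they were 2 for Ash1l, 8 for Chd8 and 1 for Kmt2c. With the replicate block they were 6 for Ash1l, 15 for Chd8, 2 for Kmt2c, 9 for Setd5 and 9 for Tbr1. Without the filter they were 1 for Chd8 and 0 for Tbr1. With halved counts they were 7 for Chd8, 1 for Kmt2c and 0 for Tbr1, and with DESeq2's size factors 0 for Tbr1. Against no virus they were 2 for Chd8, 1 for Kmt2c and 4 for Setd5. Over all genes, in the same order, DESeq2 called 1248, 3920 and 160 of 16145, and the block 2784, 5962, 480, 2621 and 1061. No filter gave 3108 and 146 of 24041 genes, and halved counts 3742, 116 and 224 of 14844. DESeq2's size factors gave 213 of 16145 genes for Tbr1, and no virus as control 3691, 127 and 1019. Leaving out 1 library gave 0 to 2 called members for Ash1l, 0 to 9 for Chd8, 0 to 1 for Kmt2c, 4 to 10 for Mbd5, 26 to 37 for Med13l, 1 to 3 for Setd5 and 0 to 1 for Tbr1.

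Within a sex, the replicate block gave 3 for Ash1l males, 4 for Chd8 males, 3 for Chd8 females, 3 for Kmt2c females, 11 for Mbd5 males, 8 for Mbd5 females, 31 for Med13l males, 40 for Med13l females, 5 for Setd5 females and 2 for Tbr1 males. In the same order that fit called 1335, 3576, 3404, 176, 158, 74, 3835, 4498, 2098 and 282 of 16145 genes. DESeq2 gave 4 members for Mbd5 males, where 26 of 16145 genes were called. Against no virus the counts of members were 2 for Chd8 females and 4 for Setd5 females, where 1682 and 650 genes were called. Leaving out 1 library gave 0 to 3 for Mbd5 females, 11 to 16 for Med13l males, 12 to 29 for Med13l females and 0 to 3 for Setd5 females.

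Against the other 8 knockdowns, the replicate block gave 19 for Ash1l, 28 for Chd8, 14 for Kdm6b, 7 for Kmt2c, 27 for Mbd5, 16 for Setd5 and 9 for Tbr1. In the same order that fit called 4908, 7795, 4554, 2970, 2697, 4723 and 2626 of 16145 genes. Without the filter the counts were 4 for Ash1l, 0 for Dnmt3a, 1 for Kdm6b and 1 for Kmt2c. There 2330, 835, 1310 and 878 of 24041 genes were called. With Med13l left out, an alternative chosen after seeing the data, the counts of members were 3 for Ash1l, 9 for Chd8, 0 for Dnmt3a, 1 for Kdm6b, 6 for Kmt2c and 1 for Tbr1. There 15.1%, 33.9%, 5.98%, 8.01%, 7.02% and 6.11% of all genes were called. Without both libraries that go against their labels, Kdm6b gave 0. Leaving out 1 library gave 4 to 10 for Ash1l, 12 to 20 for Chd8, 0 to 3 for Dnmt3a, 0 to 4 for Kdm6b, 1 to 2 for Kmt2c, 7 to 14 for Mbd5, 28 to 34 for Med13l, 5 to 8 for Setd5 and 1 to 3 for Tbr1. Where these counts moved the cause was not tested. Members with few counts, such as Pcdha8 and Pcdhb1, have wide errors at this depth.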
